A study of Mus musculus with 3 samples.

Results

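Migratory mature dendritic cells are antigen-presenting cells that have switched on Ccr7 and are equipped to leave a tissue for its draining lymph node. In immune cells from mouse liver tumours they were chosen by measured RNA values: a cell counted as a member when it held at least 4 RNA molecules (UMIs) of Ccr7, Fscn1, Ccl22 and Cacnb3 together, at least 1 of Fscn1 and at least 5 of H2-Ab1. It also held no Cd3d, Cd3e, Cd3g or Cd79a, at most 2 UMIs of the C1q genes together and at most 1 of Siglech. Of 36386 cells kept in 3 libraries, 131 met this rule: 64 of 14257 in DU101, 21 of 11710 in DU102 and 46 of 10419 in control. The rule used the measured values, so the levels of its genes, and of genes that travel with them, describe the cells and test nothing.

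Single-cell RNA was counted, with 1 library each for DU101, DU102 and control, in viable CD45+ immune cells that a sorter had taken out of fresh liver tumours in the MYC-ON mouse model. All 3 groups share the C57BL6 strain, the MYC-ON state and an age of 18 weeks. The labels used here do not state the nature, amount or length of either treatment, the driver of MYC, the animals behind each library or their sex. With 1 library per group there is no replicate check and no test: every interval here covers counting error only, and differences hold for these libraries.

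As background, a dendritic cell that takes up antigen and is activated stops sampling its surroundings, raises its peptide display and costimulatory molecules, and follows the ligands of Ccr7 through lymph vessels to T cell zones. In tumours, cells in this state carry T cell-stimulating genes such as Il12b and Cd40 beside restraining ones such as Cd274 and Il4i1, and both main lineages of conventional dendritic cell, cDC1 and cDC2, can enter it. They are also sources of Ccl22 and Ccl17, chemokines that draw Ccr4-bearing T cells, and of Ccl5.

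The libraries held 12639 to 15686 barcodes and 91013198 to 106604935 UMIs. Members had a median of 8983.5 UMIs in DU101, 10166 in DU102 and 11530.5 in control, and together 667748, 216298 and 554044 UMIs in the same order of libraries. A median of 1.58% of a member's UMIs were mitochondrial in DU101, 2.61% in DU102 and 2.36% in control. Libraries shared between 37 and 57 cell barcodes in pairs, none of them a member. Sex was split between the groups: Xist was seen in 0 of 64 DU101 members, 0 of 21 DU102 members and 42 of 46 control members, while Y-linked RNA alone was seen in 39, 14 and 2. Sex and treatment therefore cannot be told apart in either comparison with control, whereas the comparison of DU101 with DU102 has no such split.

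A few members also carried RNA of other cells. Neutrophil markers reached at least 100 UMIs in 1 DU101 member, with 1068 UMIs, in 3 DU102 members, with up to 2200, and in no control member. Endothelial markers reached at least 30 UMIs in 1 DU101 member, and mast cell markers in 1 control member, with 114. Without these, 62 DU101, 18 DU102 and 45 control members remained, called core members below, a set chosen after the data were seen. Over all members the 5 neutrophil markers summed to 2165 CPM in DU101, 15238 in DU102 and 135 in control. CPM, the scale of every level below, gives a gene's UMIs relative to all UMIs of the summed cells. Among core members they summed to 580 CPM in DU101, 1055 in DU102 and 132 in control, and in T cells, gated by at least 3 UMIs of the Cd3 genes, to 8265, 74922 and 3164. The T cell gate, unlike the core set, had no limit on neutrophil RNA, so these sets are not compared with each other. The level of neutrophil RNA thus differed between libraries in cells of other kinds too.

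Markers outside the rule were seen in most members. Il4i1, an enzyme that breaks down aromatic amino acids, and Socs2, a restrainer of cytokine signalling, were not used by the rule. Both were seen in 49 of 64 DU101, 18 of 21 DU102 and 35 of 46 control members, and neither in 4, 2 and 3. All 6 marker genes were seen together in 28 DU101, 10 DU102 and 27 control members. For comparison, cells outside the rule with the same exclusions and H2-Ab1 minimum were gated as cDC1 by at least 2 UMIs of Xcr1 and Clec9a together and none of Cd209a or Clec10a, and as cDC2 by the reverse. Il4i1 had 681 CPM in DU101, 555 in DU102 and 525 in control core members, against at most 25.1 in these gates. Socs2 had 395, 236 and 358 CPM in core members, against at most 7.05. Both genes travel with those of the rule, so these levels describe the cells chosen.

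The limit on summed UMIs passed through a sparse stretch. With all other steps met, 4 DU101 cells, 0 DU102 cells and 0 control cells held 3 UMIs of the 4 genes, just outside it, and 2 DU101 cells, 0 DU102 cells and 1 control cell held 4, just inside. At 9 or more UMIs there were 55 DU101, 17 DU102 and 43 control cells. Most members were thus far from the limit.

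**Figure D1:**
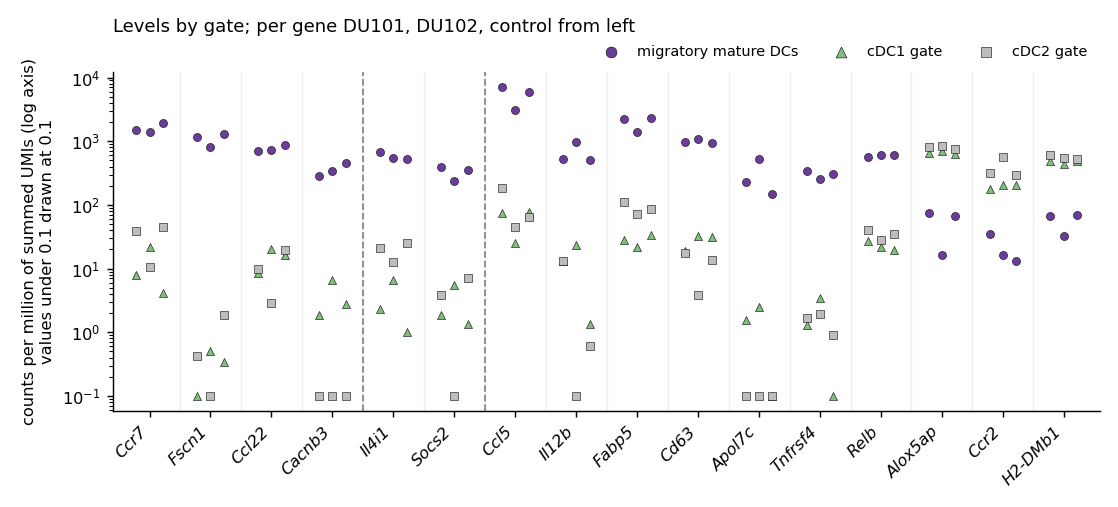
CPM, on a log axis, of 16 genes in core members (circles), cDC1-gated cells (triangles) and cDC2-gated cells (squares), with DU101, DU102 and control from left to right for each gene. The 4 rule genes stand left of the first dashed line and Il4i1 and Socs2 between the lines. Circles lie above both other symbols for every gene up to Relb, and below them for Alox5ap, Ccr2 and H2-DMb1.

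Most members lacked the RNA that tells cDC1 from cDC2. UMIs of Xcr1 or Clec9a, receptors of cDC1, without those of cDC2, were seen in 10 DU101, 1 DU102 and 6 control members. Cd209a, Clec10a or Mgl2, lectins of cDC2, were seen without the cDC1 genes in 5 DU101, 1 DU102 and 1 control member. Neither set was seen in 49 of 64 DU101, 19 of 21 DU102 and 39 of 46 control members, and no member held both. By these genes the origin of most members could not be read at this depth.

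Against cDC1- and cDC2-gated cells, 271 of 1391 genes examined were at least 2-fold higher in core members than in both gates in all 3 libraries. Of these 271, 267 were not genes of the rule or of the gates. The genes examined had to reach a minimum of summed UMIs in core members, a filter that favours genes high there. The count is a description for that reason, and because the rule chose the cells by genes that travel with many of the 271. Apol7c, of the apolipoprotein L family, had 226 CPM in DU101, 522 in DU102 and 147 in control core members, and at most 2.50 in the cDC1 and cDC2 gates. It was seen in 16 of 62 DU101, 7 of 18 DU102 and 8 of 45 control core members. Tnfrsf4, the receptor OX40, had 343, 258 and 305 CPM in the same libraries, against 3.503 at most in the gates. Ccl5 was among the most abundant of them. It had 7097 CPM in DU101, 3137 in DU102 and 5869 in control core members, where the highest gate value was 184. Relb, a subunit of the non-canonical NF-kB pathway, stood at 571, 610 and 610 CPM, an even level across the 3 libraries. Fabp5, a fatty acid carrier, had 2262 CPM in DU101, 1418 in DU102 and 2322 in control, and Cd63, a tetraspanin of late endosomes, 970, 1071 and 939.

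Genes of the resident state were lower, with 318 of 3176 examined at least 2-fold below both gates in all 3 libraries. Here the genes examined had to reach a minimum of summed UMIs in the cDC1 and cDC2 gates, which favours genes high there. This count too is only a description. Alox5ap, a helper of leukotriene synthesis, had 73.9 CPM in DU101, 16.5 in DU102 and 65.9 in control core members, against 638 to 851 in the gates. H2-DMb1, part of the complex that loads peptides onto class II molecules, had 66.0, 33.0 and 69.6 CPM in core members, against 440 to 611. Ccr2, which draws cells out of blood, had 34.6, 16.5 and 13.2 CPM, against 181 to 566. All 3 genes lay below both gates in each library.

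Members made up a smaller share of the kept cells in DU102 than in either other library. Their share was 0.449% of kept cells in DU101 (exact Clopper-Pearson 95% interval 0.346 to 0.573), 0.179% in DU102 (0.111 to 0.274) and 0.442% in control (0.323 to 0.588). The ratio of shares was 1.02 for DU101 over control (0.685 to 1.52), 0.406 for DU102 over control (0.230 to 0.695) and 2.50 for DU101 over DU102 (1.51 to 4.32). The shares of DU101 and control overlapped almost wholly, while that of DU102 lay below both intervals.

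The other dendritic gates were smaller in DU102 as well. The cDC1 gate held 1.69% of kept cells in DU101, 1.03% in DU102 and 1.497% in control, with a ratio of 0.690 for DU102 over control (0.540 to 0.881). For the cDC2 gate the shares were 1.84% in DU101, 0.854% in DU102 and 2.54% in control, with a ratio of 0.336 for DU102 over control (0.264 to 0.424). Counted among members, cDC1- and cDC2-gated cells together, members made up 11.3% in DU101, 8.68% in DU102 and 9.85% in control. On that base DU102 over control was 0.881 (0.499 to 1.51), so the smaller share of members came together with a smaller share of dendritic cells of all 3 gates. With every cell thinned to 3000 UMIs the rule found 45 members in DU101, 13 in DU102 and 33 in control, or 0.431%, 0.154% and 0.405% of the cells deep enough to be thinned.

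**Figure D2:**
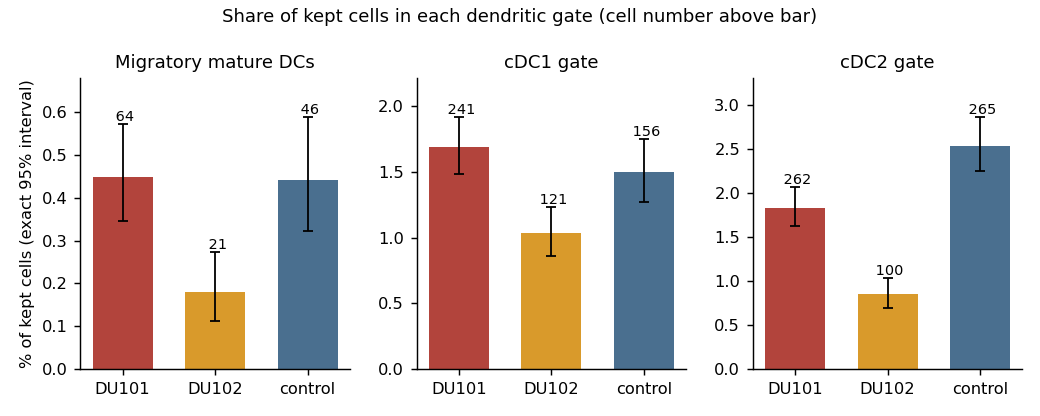
Share of kept cells (%) in the migratory mature dendritic gate, the cDC1 gate and the cDC2 gate, each panel with its own axis from 0. Bars give DU101, DU102 and control, whiskers the exact 95% interval for counting error and the number above each bar the cells. DU102 is lowest in all 3 panels.

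The clearest difference in gene expression lay in type I interferon-induced genes, the antiviral programme that cells switch on when interferon binds its receptor. Over the 44 list genes in the files, members held 7879 CPM in DU101, 2330 in DU102 and 5045 in control. A gene was called by size when it had at least 30 UMIs over the 2 libraries compared, a ratio of CPM of at least 1.5 either way and a counting interval on the same side of 1. Between DU101 and DU102, whose members share the same sex RNA, 25 of the 32 list genes measured were higher in DU101 and 0 were lower, with a median log2 ratio of 1.71. Of all 2904 genes measured in that comparison 8.85% were called higher and 6.78% lower, with a median log2 ratio of 0.062.

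Against control the list divided. In DU101, 11 of 36 measured list genes were higher than in control and 1, Slfn5, was lower, with a median log2 ratio of 0.39, where 5.75% of all 3617 genes measured were called higher and 5.36% lower. In DU102, 0 of 26 were higher and 18 were lower, with a median of -1.28, where 4.35% of all 2641 genes were called higher and 6.21% lower. TMM scaling changed the split of all calls in DU102 over control from 115 higher and 164 lower to 82 higher and 220 lower, and in DU101 over DU102 from 257 higher and 197 lower to 327 higher and 152 lower. The list itself kept 25 higher and 0 lower of 32 in DU101 over DU102, and 0 higher and 19 lower of 26 in DU102 over control, under that scaling.

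Stretches before the start of 6 genes are shown, of which Cxcl10 is on the chemokine list and not on the type I interferon list. They were chosen because they hold the sequence that interferon-activated factors are known to bind, the interferon-stimulated response element. It was searched as GAAANNGAAA on either strand, so also as TTTCNNTTTC, within 250 bases before the start of each gene in RefSeq promoter windows of GRCm38.p6. Capitals mark the matches, with 25 bases shown on either side, each read 5′ to 3′ on the strand of its gene. Isg15 at chr4:156200850-156200921 (minus strand) holds 3 overlapping matches from 78 to 57 bases before its start. Rsad2 lies at chr12:26456538-26456597 (minus), Trim30a at chr7:104465195-104465254 (minus), Cxcl10 at chr5:92349068-92349127 (minus), Ifit3 at chr19:34583348-34583441 (plus), with 2 matches, and Slfn5 at chr11:82951922-82951981 (plus). Where a gene had several windows, the first with a match is shown. The Slfn5 stretch lies before a RefSeq start that is inside the gene as placed by GENCODE M21, from 82951349 to 82964840.
Isg15: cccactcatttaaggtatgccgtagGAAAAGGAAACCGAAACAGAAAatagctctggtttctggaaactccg
Rsad2: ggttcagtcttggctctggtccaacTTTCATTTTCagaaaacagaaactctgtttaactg
Trim30a: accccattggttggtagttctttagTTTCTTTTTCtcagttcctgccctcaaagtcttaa
Cxcl10: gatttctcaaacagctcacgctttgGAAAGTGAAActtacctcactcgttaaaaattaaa
Ifit3: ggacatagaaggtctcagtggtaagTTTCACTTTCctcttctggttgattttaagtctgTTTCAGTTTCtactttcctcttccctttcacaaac
Slfn5: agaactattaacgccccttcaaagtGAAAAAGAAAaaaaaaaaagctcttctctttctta

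Of the 44 list genes 35 matched a promoter window, and 14 of these, or 40.0%, held the motif. Counted alike, by gene, the share over all genes with a window was 3.46%, or 936 of 27025. By single window it was 2.98%, or 978 of 32851. Among the 25 list genes higher in DU101 than in DU102, 22 matched a window and 9 of them, or 40.9%, held the motif, a share close to that of the whole list. For Irf7, Oasl1, Zbp1 and Phf11d no match of these letters was found, and whether each had a window was not recorded. None of the 4 migratory dendritic markers with a window held the motif. A match describes the sequence and shows no binding in these cells.

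Isg15, a ubiquitin-like protein that interferon induces, had 910 UMIs in DU101 members, 26 in DU102 and 351 in control, or 1363, 120 and 634 CPM. Its ratio was 2.15 for DU101 over control (1.90 to 2.44), 0.190 for DU102 over control (0.122 to 0.283) and 11.3 for DU101 over DU102 (7.69 to 17.5). The gene lies on chromosome 4 from 156199424 to 156200818 in GENCODE M21, with the promoter stretch shown above just before it. At least 1 UMI was seen in 50 of 64 DU101 members (78.1%), 11 of 21 DU102 members (52.4%) and 18 of 46 control members (39.1%). Thinned to 3000 UMIs, the shares were 51.6%, 30% and 24.4%, beside 26.6%, 16.8% and 17.2% in similarly thinned T cells, whose median depth before thinning was 4262, 5328.5 and 6095 UMIs. No order of DU102 and control is read from these shares, since the CPM run the other way: the highest member held 6 UMIs in DU102 and 82 in control.

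Other induced genes kept the order of DU101 above control above DU102. Irf7, the factor that amplifies interferon production, had 340 CPM in DU101, 46.2 in DU102 and 199 in control members, a ratio of 7.35 for DU101 over DU102 (3.93 to 15.5). Ifi27l2a had 1256 CPM in DU101, 268 in DU102 and 617 in control, and Ifitm3, which blocks virus entry from endosomes, 1018, 305 and 489. The nucleic acid sensor Zbp1 stood at 156 CPM in DU101, 32.4 in DU102 and 81.2 in control. For all 4, both comparisons with control were called, DU101 higher and DU102 lower. Among core members Ifi27l2a had 1280 CPM in DU101, 181 in DU102 and 630 in control, a ratio of 0.288 for DU102 over control.

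A second group separated DU102 from both others. Rsad2, whose product viperin limits virus replication, had 153 CPM in DU101, 9.25 in DU102 and 125 in control members. That was 2 UMIs in DU102, a ratio of 0.0742 over control (0.00882 to 0.279) and 16.5 for DU101 over DU102 (4.46 to 138). Oasl1 had 132, 18.5 and 112 CPM, and Trim30a 148, 18.5 and 99.3. In neither was DU101 called over control, while DU102 was called lower than control and DU101 higher than DU102. Core members of DU102 had 11.0 CPM of Oasl1 and 5.49 of Trim30a, against 117 and 99.7 in control.

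Further genes departed from both orders. Ms4a4c, a membrane-spanning protein, had 192 CPM in DU101, 60.1 in DU102 and 59.6 in control, so it was higher in DU101 alone, by 3.22-fold over control (2.18 to 4.87). Phf11d had 80.9 CPM in DU101 and 19.9 in control members, 4.07-fold higher (2.11 to 8.64), and no UMI in DU102. Against a floor of 3 UMIs for the DU102 members together, the ratio of DU101 over DU102 was 5.83, with a counting interval that starts at 4.58. Slfn5, of the schlafen family, was highest in control, with 121 CPM in DU101, 41.6 in DU102 and 211 in control. Ifitm1, of the family of Ifitm3 but not on the list, ranked first of the genes lower in DU101 than in DU102. It had 13.5 CPM in DU101, 185 in DU102 and 132 in control, and DU101 over DU102 was 0.0729 (0.0311 to 0.153). In 1 member each lay 28 of its 40 DU102 UMIs and 56 of its 73 control UMIs.

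**Figure D3:**
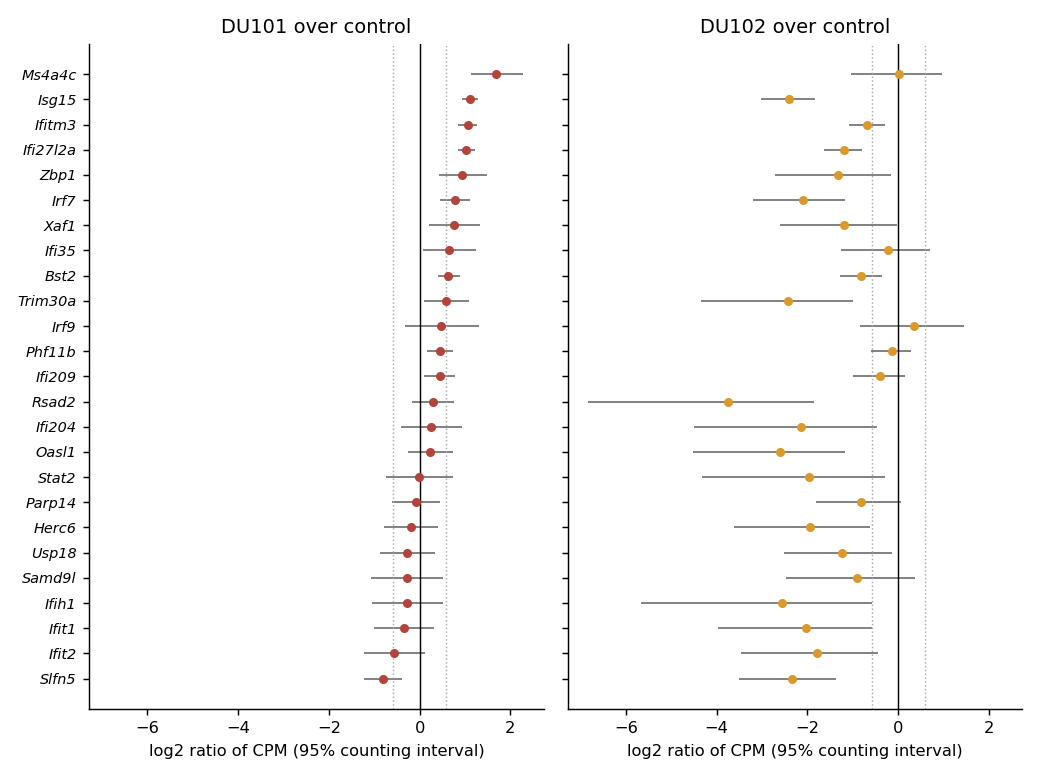
Log2 ratios of CPM in members for 25 of the 26 type I interferon list genes measured in both comparisons with control, DU101 over control on the left and DU102 over control on the right, with 95% counting intervals. Dotted lines mark 1.5-fold either way. Points on the left lie on both sides of 0, from Slfn5 to Ms4a4c, while on the right all but those of Irf9 and Ms4a4c lie below 0.

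The signal was unevenly spread over single members. Per 10000 UMIs of a cell, the list took 5.69 to 301 UMIs with a median of 52.9 over 64 DU101 members, 7.47 to 76.9 with a median of 20.6 over 21 DU102 members and 4.85 to 507 with a median of 22.8 over 46 control members. The median member of DU102 was therefore close to that of control, at a ratio of 0.906, whereas that of DU101 was 2.33 times that of control. The range of DU102 lay within the ranges of both other groups.

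Members with very high list counts accounted for part of the sums. At least 200 list UMIs per 10000 were found in 5 DU101, 0 DU102 and 4 control members, which held 25.9% of the DU101 list UMIs and 34.5% of those of control. Without them the list stood at 6294 CPM in DU101, 2330 in DU102 and 3529 in control, a ratio of 1.78 for DU101 over control and 0.660 for DU102 over control. At 50 per 10000 or more there were 33 of 64 DU101 members (51.6%, 38.7 to 64.2), 3 of 21 DU102 members (14.3%, 3.05 to 36.3) and 11 of 46 control members (23.9%, 12.6 to 38.8). At 100 or more there were 17 DU101 members, 0 DU102 members, which allows a share of up to 16.1% by the exact interval, and 6 control members. The share of DU101 members at 50 or more thus lay above the intervals of both others. The DU101 interval itself lay above that of DU102 and overlapped narrowly with that of control. The intervals of DU102 and control overlapped at 50, 100 and 200 per 10000.

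**Figure D4:**
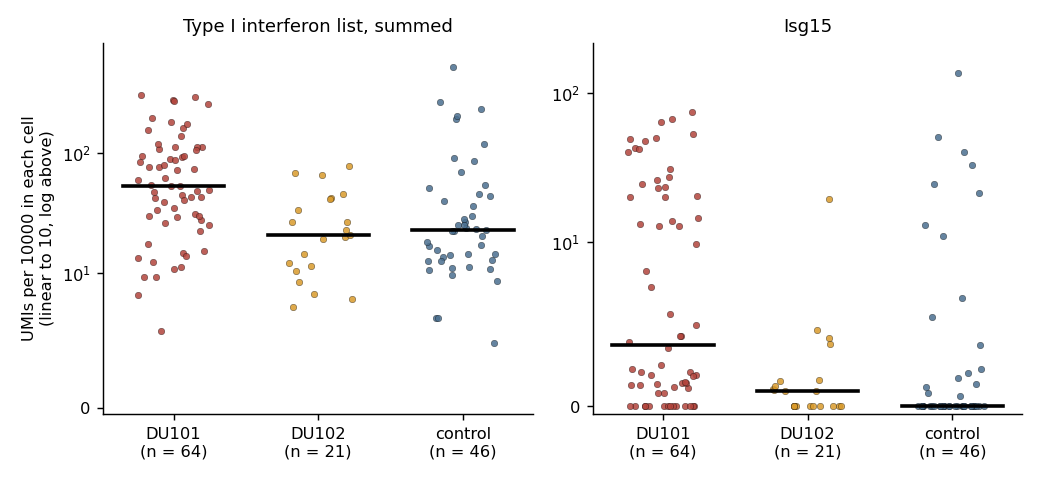
UMIs per 10000 in each member (1 point a cell, black line the median) for the summed type I interferon list and for Isg15, on axes that are linear to 10 and logarithmic above. DU101, DU102 and control run from left to right with 64, 21 and 46 cells. The DU101 median for the list, 52.9, lies above those of DU102, 20.6, and control, 22.8, and the highest points are in control and DU101.

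Summed over cells, the list was also highest in DU101 in the other dendritic gates and in T cells, but there DU102 did not lie below control. Per cell, the median of the cDC1 gate was 22.7 list UMIs per 10000 in DU101, 25.8 in DU102 and 19.3 in control, so by medians DU102 was highest in that gate. The cDC2 medians were 73.1 in DU101, 63.4 in DU102 and 60.4 in control. For DU101 over control the ratio of summed list UMIs was 1.56 in members (1.49 to 1.64), 1.38 in cDC1-gated, 1.26 in cDC2-gated and 1.71 in T cells. For DU102 over control it was 0.462 in members (0.419 to 0.508), 1.12 in cDC1-gated cells (1.08 to 1.16), 1.05 in cDC2-gated cells (1.02 to 1.08) and 1.08 in T cells (1.071 to 1.098). Neutrophil-gated cells differed from these, at 0.724 (0.713 to 0.736) for DU102 over control. The T cell gate had no limit on neutrophil RNA, whose part in the T cell ratio was not tested. The intervals of these ratios count UMIs of the same few cells and do not cover differences between cells, which in members spanned 2 orders of magnitude in control. Isg15 itself had a DU102 over control ratio of 0.804 in cDC1-gated (0.660 to 0.977) and 0.868 in cDC2-gated cells (0.721 to 1.04). Only 4 control members lacked Xist. Against these 4 the list median for DU102 over control was 0.12 over 7 measured genes, and for DU101 over control 1.02 over 32. Whether sex took part in the lower DU102 values was not tested.

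Among chemokines, Ccl5 was higher and Ccl17 lower in DU101 than in DU102 members. Of the chemokine list, DU101 over control had 1 higher and 3 lower of 11 measured, DU102 over control 2 higher and 5 lower of 10, and DU101 over DU102 4 higher and 3 lower of 9. Of all genes, 11.1%, 10.6% and 15.6% were called either way in these comparisons. Ccl5, which draws T cells, had 6937 CPM in DU101, 2792 in DU102 and 5630 in control members. It was lower in DU102 than in control, at a ratio of 0.496 (0.454 to 0.541), and higher in DU101 than in DU102, at 2.48 (2.28 to 2.71). Its median per 10000 UMIs was 49.1 in DU101, 14.5 in DU102 and 24.5 in control, and cells of all 3 groups overlapped widely.

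Ccl17 followed the reverse order and rested on few cells. It had 103 CPM in DU101, 707 in DU102 and 402 in control members, a ratio of 0.257 for DU101 over control (0.193 to 0.338) and 1.76 for DU102 over control (1.42 to 2.17). UMIs were seen in 13 DU101, 5 DU102 and 14 control members, and 1 member held 87 of the 153 UMIs in DU102 and 1 held 150 of 223 in control. With the top member of each library left out, DU101 over control was 0.570 and DU102 over control 2.48 among core members. Against the 4 control members without Xist the log2 ratio of DU101 over control was 1.04, a reversed direction. Ccl22, which shares the receptor Ccr4 and was part of the rule, had 684, 615 and 832 CPM with no call, and 28 of the 32 members with Ccl17 also held Ccl22.

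Cxcl9 and Cxcl10, which draw activated T cells through Cxcr3, rested on few members. Of the Cxcl10 UMIs, 81 of 150 in DU101, all 3 in DU102 and 128 of 140 in control lay in 1 member each. Cxcl9, with 151 of 365 DU101 UMIs and 116 of 272 control UMIs in 1 member each, was seen in 21 DU101, 9 DU102 and 11 control members, at 547, 273 and 491 CPM, and was lower in DU102 than in control at a ratio of 0.556 (0.412 to 0.739). Among core members Cxcl9 had 574 CPM in DU101, 115 in DU102 and 512 in control, and the ratio of DU102 over control was 0.225 (0.137 to 0.352). Ccl4 had 202 CPM in DU101, 18.5 in DU102 and 81.2 in control, higher in DU101 and lower in DU102 than in control, though 70 of its 135 DU101 UMIs came from 1 member.

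**Figure D5:**
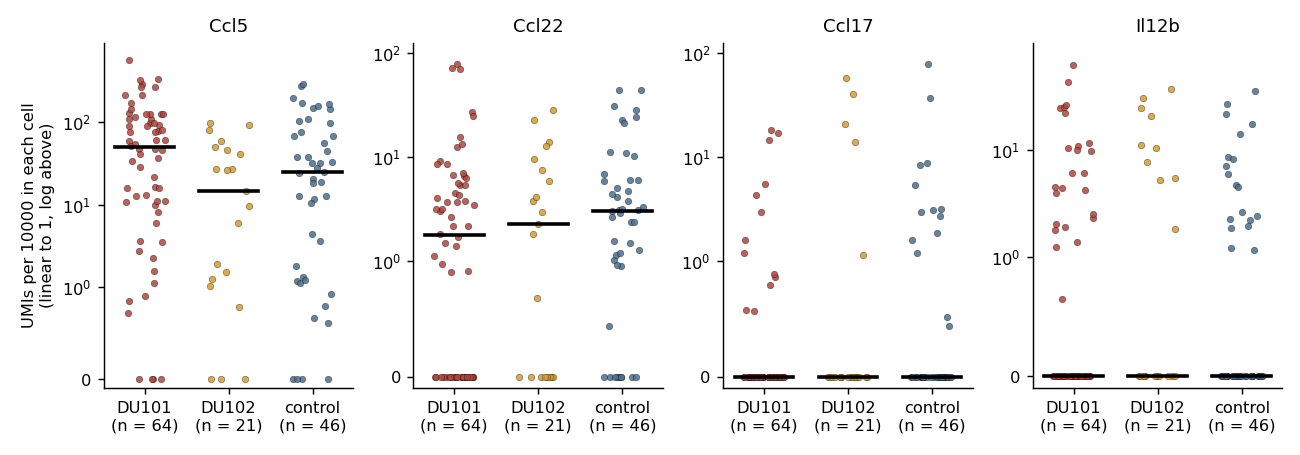
UMIs per 10000 in each member (1 point a cell, black line the median) for Ccl5, Ccl22, Ccl17 and Il12b, on axes that are linear to 1 and logarithmic above, with DU101, DU102 and control from left to right. Ccl5 was seen in nearly every member, with the highest median, 49.1, in DU101. For Ccl17 and Il12b most members lie at 0 in all 3 groups.

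Il12b, which encodes the shared subunit of IL-12 and IL-23, was higher in DU102. It had 500 CPM in DU101, 814 in DU102 and 486 in control members, at ratios of 1.03 for DU101 over control (0.875 to 1.21) and 1.68 for DU102 over control (1.38 to 2.03). Among core members 57 of 176 DU102 UMIs and 67 of 269 control UMIs lay in 1 member each. There the DU102 over control ratio was 1.91, and 1.57 with the top member of each library left out. The share of members with a UMI was 39.1% in DU101 (25 of 64), 47.6% in DU102 (10 of 21) and 41.3% in control (19 of 46), with intervals that overlapped. Thinned to 3000 UMIs these were 29.0%, 35% and 31.1%, against at most 0.127% in thinned T cells. Of the 54 members with Il12b, 51 also held Il4i1, while 61 members held Il4i1 without Il12b and 16 held neither. Il4i1 was thus seen in most members with or without Il12b, and no pairing of these genes is read.

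Of the other cytokines, Il1b had 229 CPM in DU101, 116 in DU102 and 77.6 in control members. It was higher in DU101 than in control at a ratio of 2.95 (2.09 to 4.24), with 56 of 153 DU101 UMIs in 1 member. Il15, which sustains CD8 T cells and NK cells, had 50.9 CPM in DU101, 13.9 in DU102 and 27.1 in control. It was called in DU101 over DU102, at 3.67 (1.15 to 18.7), where DU102 had 3 UMIs.

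Some genes of migration and costimulation were lower in DU102 members. Ccr7, the receptor that guides these cells to lymph nodes, had 1471 CPM in DU101, 1202 in DU102 and 1863 in control, and Fscn1, an actin bundler of their long processes, 1129, 758 and 1258. Both were lower in DU102 than in control, at 0.645 (0.561 to 0.740) and 0.603 (0.505 to 0.715), as was the adhesion molecule Icam1 at 0.536 (0.340 to 0.817). Among core members the Ccr7 ratio of DU102 over control was 0.710 (0.616 to 0.816), no longer past the size limit, and that of Fscn1 0.635 (0.528 to 0.759). Cacnb3, a calcium channel subunit, was lower in DU101, with 274 CPM in DU101, 314 in DU102 and 453 in control. Because the rule used 3 of these genes, their levels describe the cells that passed it. Over the 15 measured genes of the migration list, 0 were higher and 1 lower in DU101 over control, 0 and 3 in DU102 over control, and 0 and 0 in DU101 over DU102. Of all genes 5.36% were called lower in DU101 over control and 6.21% in DU102 over control, so the count in DU101 lies near the background. Rule genes are among those called, Cacnb3 in DU101 and Fscn1 in DU102, so neither count is read as a result.

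Costimulatory molecules give T cells the signals they need beside antigen. Of 12 measured, 0 were higher and 5 lower in DU102 over control, with a median log2 ratio of -0.37, where 6.21% of all genes were called lower. In DU101 over control 0 were higher and 1 lower, with a median of -0.08, where 5.36% of all genes were called lower. Cd80 had 53.9 CPM in DU101, 23.1 in DU102 and 84.8 in control members, with 5 UMIs in DU102 and a ratio of 0.272 over control (0.0846 to 0.682). Cd83, a maturation marker, had 674, 453 and 702 CPM, a ratio of 0.645 for DU102 over control (0.512 to 0.807), but had 522 CPM in DU102 and 726 in control among core members, no longer past the size limit. Cd86 differed in no comparison by the size rule, with 127, 111 and 128 CPM. Cd40, through which T helper cells license dendritic cells, had 264 CPM in DU101, 139 in DU102 and 177 in control, and was called higher in DU101 than in DU102 at 1.90 (1.29 to 2.90). Tnfsf9, the ligand of 4-1BB, had 58 UMIs in DU101, 1 in DU102 and 32 in control, a ratio of 18.8 for DU101 over DU102 (3.24 to 755).

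Few restraining genes were measured and few were called. There were 1 higher and 0 lower of 11 in DU101 over control, and 0 higher and 1 lower of 6 in DU102 over control. In DU101 over DU102 there were 2 higher and 0 lower of 11. Of all genes 5.75% were called higher in DU101 over control, 6.21% lower in DU102 over control and 8.85% higher in DU101 over DU102. With so few genes measured, no excess or lack of calls is read. Cd274, which encodes PD-L1, had 168 CPM in DU101, 143 in DU102 and 144 in control members, and ratios over control of 1.16 for DU101 (0.864 to 1.57) and 0.993 for DU102 (0.634 to 1.52). It was seen in 45 of 64 DU101, 13 of 21 DU102 and 32 of 46 control members. Cd200, which calms myeloid cells, had 268, 240 and 222 CPM, and Il4i1 650, 490 and 518, with no call for either. Socs2 had 380 CPM in DU101, 222 in DU102 and 352 in control, lower in DU102 than in control at 0.631 (0.450 to 0.869). The gene of this list called higher in DU101 over control was Aldh1a2, an enzyme of retinoic acid synthesis. It had 37 UMIs in DU101, 1 in DU102 and 7 in control, but 23 of the DU101 UMIs lay in 1 member.

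Of the class II presentation genes, H2-Eb1 differed in DU101. It had 6279 CPM in DU101, 3740 in DU102 and 3724 in control members, 1.69-fold higher in DU101 than in control (1.599 to 1.779) and 1.68-fold higher than in DU102 (1.56 to 1.81). H2-Ab1 had 4999, 6260 and 5047 CPM, H2-Aa 7444, 7656 and 6785, and Cd74, the invariant chain, 14667, 15816 and 14528, with no call for these 3. Of the 13 class II genes measured, 2 were higher and 0 lower in DU101 over control, 1 higher and 0 lower in DU102 over control, and 2 higher and 0 lower in DU101 over DU102, where 5.75%, 4.35% and 8.85% of all genes were called higher. The others called were H2-DMb2, with 147 CPM in DU101, 69.3 in DU102 and 97.5 in control, higher in DU101 than in both others, and H2-Oa, with 94.3, 139 and 81.2 CPM, higher in DU102 than in control. H2-Eb1 was higher in DU101 in the cDC1 gate too, at 1.73 over control (1.69 to 1.77), and in the cDC2 gate, at 1.53 (1.49 to 1.56), so its difference was not confined to members.

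Among genes outside the lists, Gclc ranked first of those higher in DU102 than in control members. It encodes the catalytic subunit of the enzyme that limits glutathione synthesis and lies on chromosome 9 from 77754535 to 77794485. Members had 190 CPM in DU101, 846 in DU102 and 68.6 in control, ratios over control of 2.77 for DU101 (1.92 to 4.10) and 12.3 for DU102 (8.66 to 18.0). UMIs were seen in 18 of 64 DU101, 8 of 21 DU102 and 13 of 46 control members, so a minority carried it in each group. Without its top member in each library the DU102 over control ratio among core members was 12.2. In the cDC1 gate Gclc had 10.5 CPM in DU101, 14.0 in DU102 and 9.60 in control, and in the cDC2 gate 7.59, 9.68 and 9.80, so its level was low in all 3 libraries there.

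Further genes were higher in DU102 members than in control by the naming rule. Apol7c had 222 CPM in DU101, 439 in DU102 and 141 in control, a ratio of 3.12 for DU102 over control (2.29 to 4.26). It was seen in 17 DU101, 7 DU102 and 8 control members. In 1 member each lay 37 of 95 DU102 UMIs and 50 of 78 control UMIs. Nampt, of NAD salvage, had 124, 425 and 182 CPM, a ratio of 2.33 (1.74 to 3.13). Psap, a lysosomal protein precursor, had 753, 2191 and 1146 CPM, and its DU102 over control ratio of 1.91 became 1.45 among core members. Maf, a transcription factor, had 148 CPM in DU102 against 16.2 in control, with 17 of its 32 DU102 UMIs in 1 member. Ehf was similarly concentrated, with 18 of 25 UMIs in 1 member. Ccl6 and Ctsb, also named, were no longer higher among core members. There Ccl6 had 5.49 CPM in DU102 and 64.0 in control, and Ctsb 291 and 326.

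For DU101 over control, 6 of the 8 genes ranked highest are genes of blood vessels with nearly all DU101 UMIs in 1 member. Fabp4 had 335 of its 336 DU101 UMIs in 1 member, Sparc 97 of 99 and Col4a1 32 of 34, and Gpihbp1, Ramp2 and Igfbp7 all of theirs. Likewise Prss34 and Mcpt8, granule proteases of basophils and mast cells that ranked lowest in both comparisons, had all 142 and 70 control UMIs in 1 control member. These values describe single cells and not the population.

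A stricter choice of genes was therefore added after the values were seen: at least 25% of core members with a UMI in the higher library, and called both in core members and without each gene's top member. It left 75 genes higher and 82 lower in DU101 over control, 34 higher and 75 lower in DU102 over control, and 95 higher and 63 lower in DU101 over DU102. Since genes chosen for breadth in the higher library had to differ, these counts are given as a description.

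Of the genes so kept in DU101, Ddt, a relative of the cytokine Mif, had 330 CPM in DU101, 132 in DU102 and 126 in control core members, and was 2.62-fold higher than in control (1.980 to 3.501). S100a6, a calcium-binding protein, had 1415, 467 and 815 CPM. Hspa1b, an inducible chaperone, had 951 CPM in DU101, 626 in DU102 and 495 in control, and was also higher in the cDC1 gate at 1.45 over control and the cDC2 gate at 1.32. Ddt, by contrast, had ratios of 0.911 and 1.104 in these gates. Hebp1, a haem-binding protein, was nearly missing from DU101: 3 UMIs were seen over 64 DU101 members, 24 over 21 DU102 members and 54 over 46 control members. Its ratio of DU101 over control was 0.0461 (0.00922 to 0.142), and in the cDC1 and cDC2 gates 0.128 and 0.355.

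Lower genes in DU101 core members also included Sel1l, of protein clearance from the endoplasmic reticulum, at 33.0 CPM in DU101, 93.4 in DU102 and 94.1 in control, and Prdm2, a chromatin regulator, at 22.01, 60.4 and 75.3. Jak2, a kinase of cytokine receptors, was lower in DU101 than in DU102 at 0.419 (0.315 to 0.560), with 193 CPM in DU101 and 462 in DU102. Eif2s3x and Irak1 were lower in DU101 than in control as well, at 0.286 (0.135 to 0.565) and 0.323 (0.151 to 0.648). Both lie on the X chromosome, and sex differed with treatment in that comparison.

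In DU102 core members, Hspa8, a constitutive chaperone, had 2122 CPM in DU101, 1039 in DU102 and 2100.1 in control, and S100a4, a calcium-binding protein, 2463, 995 and 2119. Hspa8 was also lower in the DU102 cDC1 gate, at 0.521 over control (0.501 to 0.542), whereas S100a4 was at 0.730 there and at 0.900 in the cDC2 gate. Stat4, a mediator of IL-12 signals, had 212 CPM in DU101, 49.5 in DU102 and 160 in control core members. Ly75, the endocytic receptor DEC-205, was higher in DU102, with 174, 313 and 154 CPM and a ratio of 2.03 over control (1.42 to 2.88). Over all members, Fgfbp3 had 46.4 CPM in DU101, 4.62 in DU102 and 72.2 in control. It was lower in DU102 than in control at 0.0640 (0.00158 to 0.378), with 1 UMI in DU102.

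Some stress and immediate-early genes, which tissue handling can raise, were lower in DU102. Of the list, 5 were higher and 4 lower of 29 measured in DU101 over control, 0 higher and 5 lower of 27 in DU102 over control, and 8 higher and 0 lower of 29 in DU101 over DU102. Called lower over all genes were 5.36% in DU101 over control and 6.21% in DU102 over control, and called higher in DU101 over DU102 8.85%. Among core members the counts were 0 higher and 9 lower of 26 in DU102 over control and 16 higher and 0 lower of 27 in DU101 over DU102. The percentages above belong to all members. Over all genes measured in core members, 104 were called higher and 167 lower in DU102 over control. In DU101 over DU102 these were 230 and 158. The inducible chaperone Hspa1a went the other way in DU102, with 982 CPM in DU101, 804 in DU102 and 563 in control members and no call for DU102 over control. Atf3 had 166 CPM in DU101, 27.7 in DU102 and 77.6 in control members, and Nr4a3 274, 264 and 453. Summed over the list, DU102 over control was 0.822 in members, 0.707 in the cDC1 gate, 0.813 in the cDC2 gate and 0.763 in T cells. The lower level in DU102 was thus shared by these other cells, and its part in the results above was not tested.

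Cell cycle genes rested on very few members. Mki67, a marker of dividing cells, was seen in 9 of 64 DU101, 2 of 21 DU102 and 2 of 46 control members, with 39, 2 and 3 UMIs, and 15 of the DU101 UMIs lay in 1 cell. Of 12 list genes measured, 8 were higher and 0 lower in DU101 than in control, with a median log2 ratio of 1.21. In DU101 over DU102, 9 were higher and 0 lower of 11, with a median of 1.62. Of all genes, 5.75% were called higher in DU101 over control and 8.85% in DU101 over DU102. Among members with a UMI of Il4i1 or Socs2 the DU101 over control count was 3 higher and 1 lower of 9, with a median of 0.11. That count thus depended on members without these 2 markers.

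Other programmes differed little. Of 19 measured NF-kB genes, 1 was higher and 0 lower in DU101 over control, and 1 higher and 2 lower of 16 in DU102 over control, among them Nfkbia, the feedback inhibitor, at 0.600 (0.485 to 0.736). Of the class I presentation genes, 0 were higher and 1 lower of 20 in DU101 over control and 1 higher and 1 lower of 19 in DU102 over control. Oxidative phosphorylation subunits had 3 higher and 0 lower of 61 in DU101 over control and 0 and 0 of 59 in DU102 over control. Apart from the NF-kB genes in DU102 over control, these shares lie below those called over all genes, 11.1% in DU101 over control and 10.6% in DU102 over control. Lysosomal genes had 5 higher and 0 lower of 19 in DU102 over control, but 0 higher and 1 lower of 19 among core members, without the 3 DU102 cells rich in neutrophil RNA.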

How the data were processed

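Single-cell RNA libraries of DU101, DU102 and control, 1 each, were deposited as raw UMI counts per gene and barcode, counted by the authors against mm10 per the submitters' processing notes. The Cell Ranger version is 6.0.0 per the file headers but 2.1.1 in those notes. The authors' tables of cluster averages were not used. Members and gene lists were chosen with earlier results of these data known. Cells were kept from 200 genes upward, and up to 10% mitochondrial UMIs. Scrublet, in scanpy 1.11.5, marked 1 member as a doublet, and none was removed.

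UMIs were summed over the members of a library and compared as ratios of CPM with exact conditional binomial 95% intervals, and shares had exact Clopper-Pearson intervals. Both cover counting error only. A count of 0 was set to a floor of 3 UMIs over the members of the library. The 8 highest and 8 lowest genes of each comparison, ranked by the interval end nearest to 1 among those with at least 30 UMIs and 50 CPM, were named, without mitochondrial, ribosomal, haemoglobin, receptor-segment, unnamed, hepatocyte, sex-linked and rule genes. The choice of broadly seen genes was made after seeing the data. So were 3 alternatives: leaving out members rich in another type's RNA, leaving out each gene's top member, and keeping members with Il4i1 or Socs2. TMM factors came from edgeR 4.0.16 on the deposited counts, and positions from GENCODE M21. Python 3.11.15, scipy 1.17.1 and R 4.3.3 were used, 1 measured list gene is not reported here by name, and the interval code was tested on simulated data.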

Additional observations from a re-analysis of the deposited data

How the results depend on the processing

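No paired analysis was possible because each group is 1 library. Of the list medians 779 stayed close to the reported value, 49 moved and 2 reversed, and of the ratios of named genes 1374 stayed close, 115 moved and 15 reversed. As a share of members, cDC1- and cDC2-gated cells together, the ratio of shares was 0.881 for DU102 over control and 1.30 for DU101 over DU102. The number of member genes called by size in DU101 over control, DU102 over control and DU101 over DU102 was 402, 279 and 454. It was 726, 542 and 721 with no minimum of UMIs, 136, 100 and 213 with at least 100 UMIs over both, and 214, 163 and 258 with a fold limit of 2. With at least 10 UMIs over both it was 635 in DU101 over control and 465 in DU102 over control. Against the 4 control members without Xist it was 220 in DU101 over control and 133 in DU102 over control. Of the calls in DU102 over control, 41.2% were higher, against 27.2% with TMM, 32.0% with median-of-ratios scaling and 24.4% without each gene's top member. In DU101 over DU102 these shares were 56.6%, 68.3%, 64.96% and 74.7%.

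Against control members without Xist, the DU102 over control list median (log2) reversed to 1.505 for chemokines and 0.12 for type I interferon genes. Against them the Ccl5 log2 ratio, DU102 over control, was 0.068, the Ccl17 log2 ratio, DU101 over control, 1.04, the Psap log2 ratio, DU101 over control, 0.38, and the Slfn5 log2 ratio, DU101 over control, 0.69. The Fabp4 log2 ratio, DU101 over control, was -3.49 with summed UMIs of at least 6, -3.58 without members rich in RNA of another type and -3.55 in members with Il4i1 or Socs2, and the Igfbp7 log2 ratio, DU101 over control, -0.91, -0.996 and -0.97. Without members rich in RNA of another type, the Ccl6 log2 ratio, DU102 over control, was -3.54 and the Ccl6 log2 ratio, DU101 over DU102, 3.65. There the Ctsb log2 ratio, DU102 over control, was -0.16, the Osm log2 ratio, DU102 over control, -0.33 and the Osm log2 ratio, DU101 over DU102, 0.19. The cause was not tested. DU102 had the fewest members, 21, and the fewest UMIs in them, 216298.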
